A study of Mus musculus with 9 samples.

Results

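Messenger RNAs of 10 temperature-responsive genes were followed in the frontal cortex of mice without the long noncoding RNA Neat1. They were picked by name out of the 43629 genes in the deposited counts: Rbm3 and Cirbp, which encode RNA-binding proteins induced by cold, and the heat shock genes Hspa1a, Hspa1b, Hspa8, Hsph1, Hsp90aa1, Dnajb1, Hspb1 and Serpinh1. All 10 passed the filter on low counts, among 19753 genes tested. The choice had the difference between Neat1-/- and WT mice in view, so the genotype values of these 10 genes are given as a description and without p-values.

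RNA depleted of ribosomal RNA was sequenced from 4 Neat1-/- mice, aged 3, 3, 4 and 2 months (replicates 1, 3, 4 and 5), and from 5 WT mice, aged 2, 2, 3, 4 and 4 months (replicates 1 to 5). All were female C57BL/6 mice, and each library stands for 1 mouse as labelled. In Neat1-/- mice lacZ and polyadenylation signals sit just downstream of the Neat1 transcription start site in every cell of the body. Neat1, the RNA scaffold of nuclear paraspeckles, averaged 8.14 ± 1.18 CPM in Neat1-/- mice (SD, n = 4) and 81.4 ± 23.0 CPM in WT mice (SD, n = 5), without overlap. CPM are counts scaled to a library of 1000000 after TMM normalization. Body temperature and the time of day are not given in the sources used here. The supplementary methods describe death by carbon dioxide and cervical dislocation under immunocytochemistry, and whether it also holds for the mice sequenced is not said.

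RBM3 and CIRBP belong to one family of glycine-rich RNA-binding proteins whose messages accumulate when cells are cooled by a few degrees, and CIRBP follows the daily rhythm of body temperature in mice. In mouse brain RBM3 has been tied to the upkeep of synapses after cooling. Heat shock genes respond the opposite way: on heat or misfolded protein the factor HSF1 binds inverted repeats of a short unit in their promoters and drives chaperones of the HSP70, HSP90, J-domain and small heat shock protein families. Some chaperones, among them Hspa8 and Hsp90aa1, are also abundant in unstressed neurons.

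The windows around the transcription start show which of these genes carry the short motifs of the heat and cold responses. RefSeq windows on GRCm38.p6, from 250 bases before to 50 bases after the start, were matched by symbol for 7 of the 10 genes (10 windows), those other than Rbm3, Hspa8 and Hsp90aa1. An inverted pair of heat shock units (GAANNTTC or TTCNNGAA, each its own reverse complement, so that both strands are covered) was present in the windows of Hspa1a, Hspa1b, Hspb1 and Hsph1, and in 15.1% of the 32851 windows of all genes. The octamer TCCCCGCC, or GGCGGGGA on the other strand, known as a mild-cold responsive element of Cirbp, was present in 1 window each of Cirbp, Dnajb1, Hspa1a and Hspa1b, and in 5.38% of all windows. Serpinh1 held none of these letters. The 250 bases before the start are shown for 4 genes, 5′ to 3′, with motif matches in capitals, because they span the cold octamer (Cirbp) and 3 arrangements of the heat shock pair:
Cirbp, chr10:80167589-80167838, plus strand: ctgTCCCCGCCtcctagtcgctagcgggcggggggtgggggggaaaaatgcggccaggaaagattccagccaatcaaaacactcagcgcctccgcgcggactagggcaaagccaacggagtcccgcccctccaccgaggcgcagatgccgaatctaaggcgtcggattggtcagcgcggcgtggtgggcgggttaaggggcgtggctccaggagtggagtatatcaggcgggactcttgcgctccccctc
Hspa1a, chr17:34972157-34972406, minus strand: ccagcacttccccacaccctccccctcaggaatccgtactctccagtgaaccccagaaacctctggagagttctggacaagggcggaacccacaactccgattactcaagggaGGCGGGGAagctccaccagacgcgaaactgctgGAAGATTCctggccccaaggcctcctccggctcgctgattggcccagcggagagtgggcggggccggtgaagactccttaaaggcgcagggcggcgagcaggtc
Hspb1, chr5:135887669-135887918, plus strand: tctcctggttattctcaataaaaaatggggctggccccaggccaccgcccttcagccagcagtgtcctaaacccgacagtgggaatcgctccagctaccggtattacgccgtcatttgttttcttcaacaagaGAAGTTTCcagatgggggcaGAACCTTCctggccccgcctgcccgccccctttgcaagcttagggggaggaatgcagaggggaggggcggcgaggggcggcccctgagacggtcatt
Hsph1, chr5:149636316-149636565, minus strand: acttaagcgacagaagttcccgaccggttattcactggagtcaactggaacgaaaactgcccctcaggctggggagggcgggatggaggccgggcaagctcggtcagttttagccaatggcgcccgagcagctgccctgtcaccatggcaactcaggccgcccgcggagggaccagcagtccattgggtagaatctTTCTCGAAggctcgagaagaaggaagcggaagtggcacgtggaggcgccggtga
In the Cirbp window shown the octamer began 247 bases before the start. In Dnajb1 it was in the window chr8:83608298-83608597, after the start, from base 35 of the transcript. The other Dnajb1 window, which lies farther upstream, held no octamer. In Hspa1a the octamer began 137 and the heat shock pair 104 bases before the start, and the windows of Hspa1a and Hspa1b were identical at 296 of 300 bases. Hspb1 held 2 pairs, 117 and 97 bases before the start. The Hsph1 window shown held a pair 54 bases before the start and, from base 16 of the transcript, the 3-unit form TTCTGGAAAGTTC, which overlaps 2 of its pairs. In the other Hsph1 window, with another start, the same pair lay 33 bases before the start and the 3-unit form began at base 37. Some 3-unit form was present in 0.603% of all windows.

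Counts per library summed to between 51276067 and 64648856. WT replicates 3 and 4 stood apart from the other libraries on the first principal component, at 47.8 and 42.1 against -17.8 to -4.8 in the other 7. Intronic and unconfirmed gene models took 0.234% and 0.212% of their counts, against 0.113% to 0.136% in the other libraries. WT replicate 4 also had the lowest summed level of meningeal fibroblast markers (37.1 CPM against 81.9 to 106.9 CPM elsewhere), and WT replicate 3 the highest of choroid plexus markers (117.9 CPM against 15.4 to 27.0 CPM). The genotype differences of the 10 genes, and those named from the pathway lists at an unadjusted p under 0.05, are therefore given with and without these 2 libraries.

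Rbm3 and Cirbp, the cold-inducible members, had higher mean levels in Neat1-/- than in WT mice. The paper already lists Rbm3, with a positive t-score, among the RNA processing genes that changed in its Neat1-/- mice. Rbm3 (ENSMUSG00000031167, chromosome X, 8138975 to 8145880) had 50.3, 48.3, 45.4 and 43.9 CPM in Neat1-/- replicates 1, 3, 4 and 5, against 41.0, 35.0, 32.1, 30.6 and 46.6 CPM in WT replicates 1 to 5. All 4 Neat1-/- mice lay above the WT mean, the 2 libraries that stood apart were the lowest of all, and WT replicate 5 lay within the Neat1-/- range. The log2 fold change was 0.34 (standard error 0.10), a 1.27-fold higher level. Without WT replicates 3 and 4 it was 0.17 (standard error 0.067) (1.13-fold). Rbm3 shares 14.8% of its 50-base words with other genes, chiefly Rbm3-ps, and 94 of its 4698 exon bases with the antisense gene Rbm3os, which had 0.261 to 0.451 CPM in Neat1-/- mice and 0.343 to 0.558 CPM in WT mice; since the strand setting is not given, reads of these bases cannot be told apart. In bulk tissue a change in the number of cells that hold a message and a change in its amount per cell cannot be told apart.

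Cirbp (ENSMUSG00000045193, chromosome 10, 80165985 to 80172786) had 57.1, 53.5, 46.2 and 49.7 CPM in Neat1-/- replicates 1, 3, 4 and 5, against 45.4, 41.7, 48.4, 36.1 and 48.7 CPM in WT replicates 1 to 5. Again all 4 Neat1-/- mice lay above the WT mean while the ranges overlapped, here through Neat1-/- replicate 4 and WT replicates 3 and 5. The log2 fold change was 0.23 (standard error 0.083), or 1.17-fold, and 0.18 (standard error 0.069), or 1.13-fold, without WT replicates 3 and 4. For each of these genes 18 of the 20 pairings of a Neat1-/- with a WT mouse had the higher level in the Neat1-/- mouse.

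Hspa1a and Hspa1b, the neighbouring copies of the classical stress-inducible HSP70, were low in every library. Hspa1a (ENSMUSG00000091971, chromosome 17, 34969190 to 34972156) had 3.27, 3.55, 2.80 and 2.69 CPM in Neat1-/- mice, against 2.74, 2.57, 2.60, 3.29 and 3.55 CPM in WT mice. Hspa1b (ENSMUSG00000090877, chromosome 17, 34956436 to 34959238) had 4.76, 4.68, 3.58 and 4.43 CPM in Neat1-/- mice, against 3.05, 4.56, 4.46, 5.59 and 5.01 CPM in WT mice. Neither gene separated the genotypes, with log2 fold changes of 0.07 (standard error 0.13) for Hspa1a and -0.04 (standard error 0.15) for Hspa1b, and of 0.02 (standard error 0.14) and 0.04 (standard error 0.16) without WT replicates 3 and 4. The copies share much sequence: 66.3% of the 50-base words of Hspa1a and 62.3% of those of Hspa1b occur in transcripts of other genes, for the most part in each other. Whether reads of shared sequence were split between them or left out is uncertain, and if left out, the levels and their sum are too low. Their sum was 8.03, 8.23, 6.39 and 7.12 CPM in Neat1-/- mice, against 5.79, 7.13, 7.06, 8.88 and 8.55 CPM in WT mice, and overlapped in the same way. Hspa1a also shares 564 of its 2967 exon bases with the opposite-strand gene Gm20481, which had 0 CPM in every library.

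Hspb1, Dnajb1 and Hsph1 are further HSF1-responsive genes. Hspb1 (ENSMUSG00000004951, chromosome 5, 135887919 to 135889563), a small heat shock protein that holds unfolded proteins in solution, had 3.39, 3.56, 2.93 and 3.23 CPM in Neat1-/- mice, against 2.87, 4.15, 2.75, 2.79 and 3.40 CPM in WT mice. The highest value was WT replicate 2, and the log2 fold change was 0.04 (standard error 0.14), or -0.07 (standard error 0.14) without WT replicates 3 and 4. Of the 50-base words of Hspb1, 51.6% also occur in the pseudogene Hsp25-ps1. Dnajb1 (ENSMUSG00000005483, chromosome 8, 83608193 to 83612653), the J-domain partner that hands substrates to HSP70, had 54.7, 52.9, 54.8 and 60.2 CPM in Neat1-/- mice, against 52.4, 62.7, 51.9, 58.4 and 58.8 CPM in WT mice. Its log2 fold change was -0.03 (standard error 0.059), or -0.06 (standard error 0.060) without WT replicates 3 and 4. In Hspb1 and Dnajb1 the Neat1-/- values lay within the WT range.

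Hsph1 (ENSMUSG00000029657, chromosome 5, 149614287 to 149636376), which releases nucleotide from HSP70, had 230.0, 217, 263 and 229 CPM in Neat1-/- replicates 1, 3, 4 and 5, against 252, 255, 241, 279 and 242 CPM in WT replicates 1 to 5. Neat1-/- replicates 1, 3 and 5 were the 3 lowest of the 9 libraries, and Neat1-/- replicate 4 was the second highest. The log2 fold change was -0.11 (standard error 0.053), or 0.925-fold, and -0.10 (standard error 0.053) without WT replicates 3 and 4. None of its 50-base words occurred in another gene.

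Hspa8 and Hsp90aa1, chaperones with high levels in resting brain, differed little. Hspa8 (ENSMUSG00000015656, chromosome 9, 40800984 to 40810087), the constitutive HSP70 that also strips clathrin coats at synapses, had 1279, 1304, 1303 and 1291 CPM in Neat1-/- mice, against 1382, 1390, 1219, 1431 and 1364 CPM in WT mice. The 4 Neat1-/- mice were close together and all below the WT mean, and only WT replicate 3 lay below them. For Hspa8, as for Hsph1, 4 of the 20 pairings of a Neat1-/- with a WT mouse had the higher level in the Neat1-/- mouse. The log2 fold change was -0.07 (standard error 0.040) over 9 libraries and -0.09 (standard error 0.021), or 0.937-fold, without WT replicates 3 and 4. Leaving out WT replicate 3 by itself removes the overlap of the genotypes. The share of all genes without overlap was not counted for the libraries kept, so nothing is read from this. Hsp90aa1 (ENSMUSG00000021270, chromosome 12, 110690605 to 110702728), the stress-responsive cytosolic HSP90, had 914, 893, 909.8 and 874 CPM in Neat1-/- mice, against 912, 922, 826, 897 and 907 CPM in WT mice, with WT replicate 3 alone below the rest. Its log2 fold change was 0.01 (standard error 0.034), or -0.03 (standard error 0.025) without WT replicates 3 and 4. Other genes share 52.7% of the 50-base words of Hspa8, and 45.3% are in Gm15459 alone; for Hsp90aa1 the shares are 58.5% and, in Gm12346 alone, 51.5%.

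Serpinh1 (ENSMUSG00000070436, chromosome 7, 99345376 to 99353239), the collagen chaperone HSP47 of the endoplasmic reticulum, is the one member whose best known client is matrix and not cytosolic protein. It had 14.2, 17.0, 17.8 and 15.8 CPM in Neat1-/- mice, against 18.8, 20.1, 14.1, 13.5 and 17.6 CPM in WT mice. WT replicates 3 and 4 were the 2 lowest libraries, and the other 3 WT mice were among the 4 highest. The log2 fold change was -0.05 (standard error 0.11) over all libraries and -0.22 (standard error 0.081), or 0.860-fold, without WT replicates 3 and 4, so that its size differed with these libraries kept or left out.

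**Figure D1:**
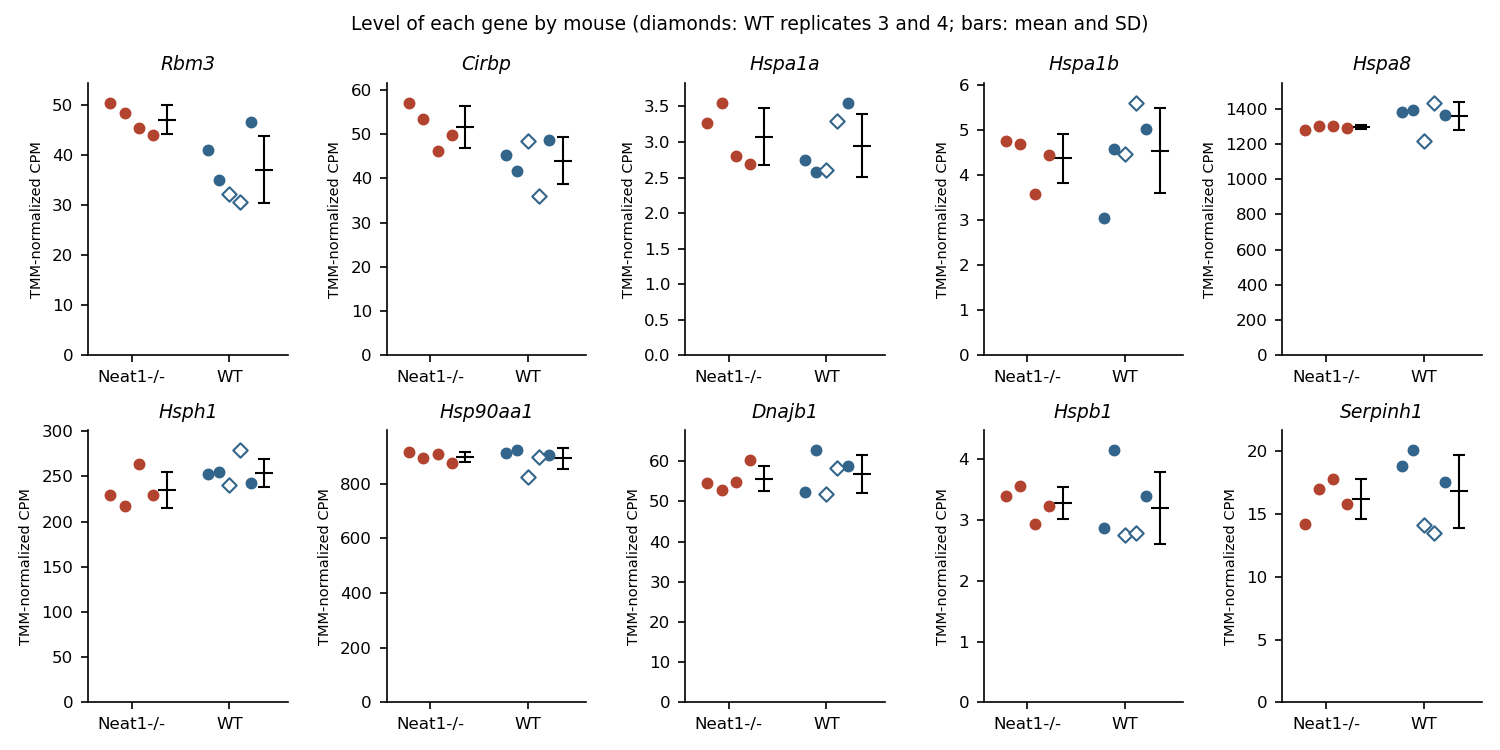
Levels of the 10 genes in TMM-normalized CPM (vertical axes, from 0), 1 point per mouse, with Neat1-/- mice left of WT mice and the mean ± SD beside them; diamonds are WT replicates 3 and 4. The Neat1-/- points of Rbm3 and Cirbp sit above the WT mean and those of Hspa8 below it. The ranges of the genotypes overlap for all 10 genes.

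The ranges of the genotypes overlapped for all 10 genes, while 2.67% of the tested genes had no overlap. At an adjusted p under 0.05 from edgeR's quasi-likelihood test 0 of the 10 genes were called, against 0.0709% of all tested genes (14 of 19753), and DESeq2 and limma also called 0, where they called 0.38% and 0.111% of all genes. At an unadjusted p under 0.05 edgeR called 2 as higher (Rbm3 and Cirbp), where 4.27% of all genes were called higher, and 0 as lower, where 4.03% were; edgeR called 8.3% of all genes in either direction. DESeq2, which called 7.8%, added Hsph1, and limma, which called 9.9%, added Hsph1 and Hspa8. In the log2 values deposited by the authors, which carry their own adjustment, the difference of the group means was 0.18 for Rbm3 and 0.16 for Cirbp, and between -0.17 (Serpinh1) and -0.01 for the heat shock genes. Since the members were chosen with this contrast in view, nothing is read from these counts. Rbm3 passed the adjusted threshold when WT replicate 5, the only WT mouse within its Neat1-/- range, was left out (background 0.153%). Its log2 fold change was then 0.46. It also passed when no filter on low counts was used (background 0.236%). In no other fit tried did a member pass the adjusted threshold. These calls too use the contrast that was in view when the members were chosen, and nothing is read from them. The median log2 fold change was 0.285 over Rbm3 and Cirbp and -0.035 over the 8 heat shock genes, beside 0.00 over all tested genes. Scaling by library size alone turned the split of all genes at an unadjusted p under 0.05 to 648 higher and 947 lower, beside 844 higher and 796 lower with TMM; under every scaling tried Rbm3 and Cirbp kept a positive log2 fold change.

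**Figure D2:**
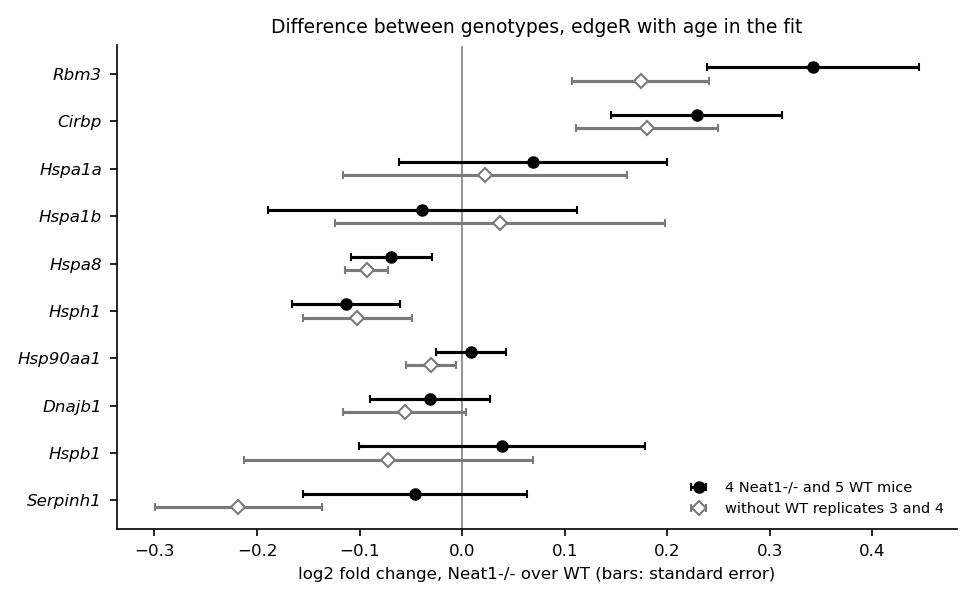
Log2 fold change of Neat1-/- over WT (horizontal axis) with its standard error for each gene, from all 9 libraries (filled circles) and without WT replicates 3 and 4 (open diamonds). Rbm3 lies at 0.34 and 0.17, Cirbp at 0.23 and 0.18, and Serpinh1 at -0.05 and -0.22.

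Levels can be compared between genes only per length, as transcripts per 1000000 (TPM, from the summed exons of each gene). Hspa8 was the most abundant, at 1135 ± 24.3 TPM in Neat1-/- mice and 1211 ± 70.6 TPM in WT mice (SD, n = 4 and 5), followed by Hsp90aa1 at 862 ± 8.46 TPM in Neat1-/- mice and 871 ± 30.5 TPM in WT mice. Hsph1 came next, at 122 ± 9.14 TPM in Neat1-/- mice and 134 ± 9.54 TPM in WT mice. Below these lay Cirbp and Dnajb1, whose ranges overlapped: Cirbp had 74.8 ± 6.76 TPM in Neat1-/- mice and 64.9 ± 7.54 TPM in WT mice, and exceeded Dnajb1 in 7 of 9 mice. The length used matters most for this pair: with the longest transcript of each gene as its length, Cirbp averaged 119 TPM in Neat1-/- mice and 103 TPM in WT mice, and Dnajb1 56.5 TPM in Neat1-/- mice and 58.6 TPM in WT mice. Rbm3, at 37.7 ± 2.17 TPM in Neat1-/- mice and 30.2 ± 4.96 TPM in WT mice, exceeded Serpinh1 in 8 of 9 mice, again with overlapping ranges. Hspb1 (10.6 to 13.2 TPM in Neat1-/- mice and 10.3 to 15.4 TPM in WT mice), Hspa1b and Hspa1a were the lowest. Hspa1b exceeded Hspa1a in 9 of 9 mice, though how reads shared by these copies were counted is uncertain. The same holds for the shared sequence of Hspb1, Hspa8 and Hsp90aa1. If such reads were left out, the levels of these genes are too low. The stress-inducible HSP70 copies were thus far below their constitutive relative: Hspa1a had 3.91 ± 0.524 TPM in Neat1-/- mice and 3.82 ± 0.589 TPM in WT mice.

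The genes also differed in how steady they were from mouse to mouse. The SD of log2 CPM within genotype was 0.052 for Hsp90aa1 and 0.068 for Hspa8, percentiles 13.2 and 25.5 of all tested genes, whose median SD was 0.121. It was 0.276 for Hspa1b (percentile 70.9), 0.215 for Serpinh1, 0.204 for Hspb1, 0.199 for Hspa1a and 0.199 for Rbm3. Over all 9 libraries Hsp90aa1 and Hspa8, the most abundant of the 10, were thus the steadiest and Hspa1b the most variable. Lower counts carry more counting error: Hspa1a had 136 to 216 counts per library and Hspa8 63729 to 86520. Without WT replicates 3 and 4 the SD over WT mice fell from 81.3 to 13.3 CPM for Hspa8, from 38.5 to 7.68 CPM for Hsp90aa1 and from 2.91 to 1.24 CPM for Serpinh1. It also fell for Rbm3, Cirbp and Hsph1, and rose for Hspa1a, Hspa1b, Hspb1 and Dnajb1. The percentiles were not taken without these libraries.

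Age, the other variable of the study, was not used to choose these genes and was tested in the same fit. Of the 10 genes 0 passed an adjusted p of 0.05 for age, where edgeR called 0% of all tested genes, and 0 passed an unadjusted p of 0.05, where it called 5.97%; DESeq2 and limma also called 0 at either threshold, where DESeq2 called 0.0203% and 5.63% of all genes and limma 0.00506% and 8.27%. Hspa1a had the smallest p: at 2 months it was at 2.69 CPM in the Neat1-/- mouse and at 2.74 and 2.57 CPM in WT mice, at 3 months at 3.27 and 3.55 CPM in Neat1-/- mice and 2.60 CPM in the WT mouse, and at 4 months at 2.80 CPM in the Neat1-/- mouse and 3.29 and 3.55 CPM in WT mice. Its slope was 0.13 per month on the log2 scale (standard error 0.080, edgeR unadjusted p = 0.117, adjusted p = 0.83). The slopes of Rbm3 (0.02, standard error 0.063, edgeR adjusted p = 0.976) and Cirbp (-0.03, standard error 0.052, edgeR adjusted p = 0.933) were smaller than their errors. Some genes were higher with age at an unadjusted p under 0.05 when libraries were left out, and 0 passed the adjusted threshold: Rbm3 without WT replicates 3 and 4 (where 6.34% of all genes were called in either direction), Hspa1a and Hspa1b without Neat1-/- replicate 4 (4.63%), and Hsph1 without WT replicate 5 (13.4%).

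The slope with age was also compared between the genotypes. Hspa1b had the only unadjusted p under 0.05, with a slope lower by 0.39 per month in Neat1-/- than in WT mice (log2 scale, standard error 0.18, edgeR unadjusted p = 0.0473, adjusted p = 1.0). Over all genes 0% passed the adjusted and 1.95% the unadjusted threshold, and each age held 1 or 2 mice per genotype.

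**Figure D3:**
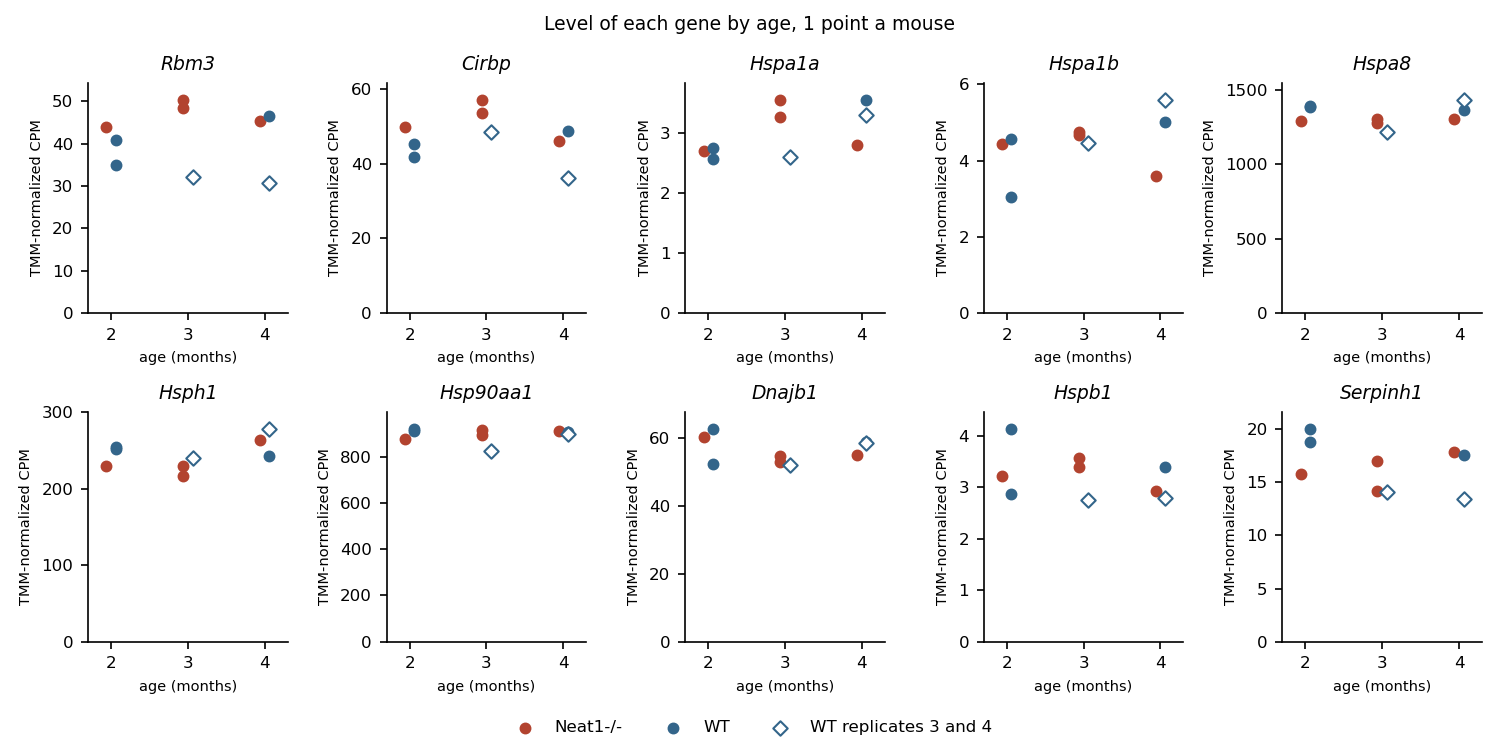
Levels of the 10 genes in TMM-normalized CPM (vertical axes, from 0) against age in months, 1 point per mouse, Neat1-/- in red and WT in blue, with WT replicates 3 and 4 as diamonds. With all 9 libraries no gene passed the test for age, and in Hspa1b the 4-month Neat1-/- mouse (3.58 CPM) lies below the WT mice of that age (5.59 and 5.01 CPM).

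Whether the genes varied together from mouse to mouse was examined on log2 CPM centred within each genotype. Of the 45 pairs 29 had a positive Pearson r, and of the 28 pairs of heat shock genes 20 had one. Rbm3 and Cirbp had r = 0.627 (exact permutation within genotype over 2880 rearrangements, two-sided p = 0.128, adjusted p = 0.803 over 45 pairs) and Spearman's rho = 0.617 (exact permutation p = 0.142, adjusted p = 0.837). Their r was 0.544 without the 2 mice farthest from the median of Rbm3 and 0.831 without WT replicates 3 and 4. Cirbp and Hsph1 ran opposite, with r = -0.836 (exact permutation p = 0.00694, adjusted p = 0.312) and rho = -0.75 (exact permutation p = 0.0368, adjusted p = 0.837), and with r = -0.487 without the 2 farthest mice. No pair passed the adjusted threshold, and this was the only pair with an unadjusted p under 0.05 for r. Hspa8 and Hsp90aa1 had r = 0.822 (exact permutation p = 0.16, adjusted p = 0.803) and rho = 0.45 (exact permutation p = 0.276, adjusted p = 0.837). Without WT replicates 3 and 4, also the 2 farthest mice, r was 0.056 with the means taken anew and 0.5 with the means of all 9 mice kept. The value was thus lower without those libraries, by an amount that depended on the centring.

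**Figure D4:**
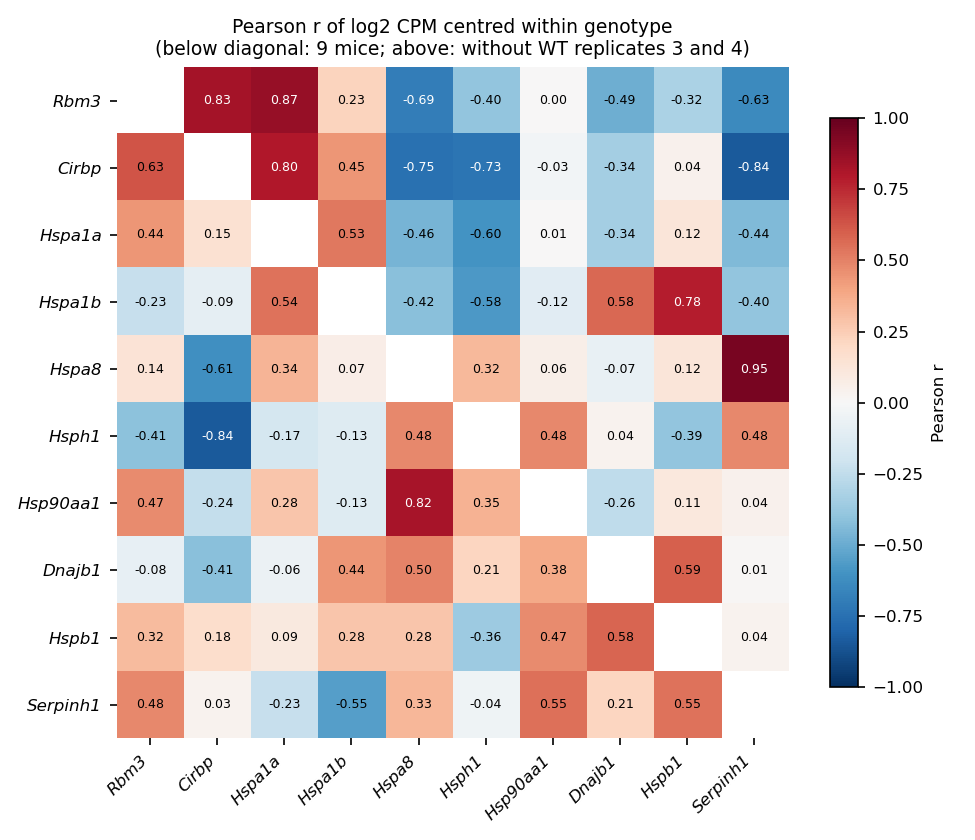
Pearson r of log2 CPM, centred within genotype, for each pair of genes (colour scale from -1 to 1), with all 9 mice below the diagonal and without WT replicates 3 and 4 above it (centred anew on the mice left). Rbm3 with Cirbp is positive on both sides (0.63 and 0.83), Cirbp with Hsph1 negative on both (-0.84 and -0.73), and Hspa8 with Hsp90aa1 has 0.82 below and 0.06 above.

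The genes whose pattern was most like each member were not the other members: for none of the 10 was another member among the 100 most alike of 19752 tested genes. The nearest was Hspa8, at rank 285 for Hsp90aa1 seen from Hspa8 and 352 seen from Hsp90aa1. Rbm3 was most like Nifk (r = 0.972), Pigt (0.972) and Ndst4 (0.965), and Cirbp most like Eml2 (0.983), Gm23217 (0.951) and Anxa8 (0.949). For Rbm3 and Cirbp these r were between 0.889 and 0.981 without WT replicates 3 and 4. Hspa1a was most like Sc5d (0.963), Pde1a (0.954) and Rwdd2b (0.942), Hspa1b most like Gm37696 (0.960), Sycp3 (0.954) and Cerk (0.944), and Hsph1 most like Mettl16 (0.958), Pomt1 (0.951) and Ttbk2 (0.950). Hsp90aa1 was most like Pdcd10 (0.980), Crk (0.974) and Rab1a (0.971), and Dnajb1 most like Camkk1 (0.975), Tub (0.974) and Tmem200a (0.962). Hspb1 was most like Camk2n2 (0.976), Gna13 (0.971) and Asb2 (0.968), and Serpinh1 most like Trim27 (0.983), Loxl3 (0.967), an enzyme that crosslinks collagen, and 2810006K23Rik (0.966). Hspa8 was most like Akr1e1 (0.973), Gm8177 (0.966) and Phax (0.964), with r = -0.053, 0.518 and 0.631 without WT replicates 3 and 4. Over 9 libraries and 19752 genes these values are a description of these mice.

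The wider pathways were read from 10 lists of 111 other genes, 110 of them in the counts and 106 tested. At an unadjusted p under 0.05 edgeR called 6 of the 106 as higher and 3 as lower in Neat1-/- mice, 9 in all, beside 8.3% of all genes, and 1 passed the adjusted threshold. Their median log2 fold change was -0.005. The number called lay between 5 and 19 when single libraries were left out.

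Among other HSP70 genes, 0 of 10 tested passed the adjusted threshold, and Hspa4 and Hspa5 were lower at an unadjusted p under 0.05. Hspa5, the HSP70 of the endoplasmic reticulum (BiP), had 266, 261, 283 and 304 CPM in Neat1-/- mice, against 337, 357, 254, 360 and 296 CPM in WT mice, with WT replicate 3 the lowest. On the log2 scale it was lower by 0.21 in Neat1-/- mice (log2 fold change -0.21, standard error 0.087, edgeR unadjusted p = 0.0342, adjusted p = 0.583), and without WT replicates 3 and 4 by 0.22 (log2 fold change -0.22, standard error 0.048, edgeR unadjusted p = 0.000579, adjusted p = 0.208). For Hspa4, a relative of Hsph1, the log2 fold change was -0.09 (standard error 0.038, edgeR unadjusted p = 0.0357, adjusted p = 0.587), and -0.10 (standard error 0.033, edgeR adjusted p = 0.526) without these libraries. Of 15 genes known to be induced by HSF1, Hspa4 was the only one at an unadjusted p under 0.05, and 7 had a positive and 8 a negative log2 fold change.

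Of 3 other HSP90 genes, 8 small heat shock genes, 11 chaperonin genes and 5 heat shock factor genes tested, 0 passed either threshold. Hsp90ab1, the constitutive cytosolic HSP90, averaged 1146 ± 32.4 CPM in Neat1-/- mice and 1108 ± 53.6 CPM in WT mice (SD, n = 4 and 5), and Hsp90b1 of the endoplasmic reticulum 284 ± 9.37 CPM in Neat1-/- mice and 295 ± 19.9 CPM in WT mice. Cryab, a small heat shock protein of oligodendrocytes and astrocytes, averaged 35.8 ± 3.29 CPM in Neat1-/- mice and 38.2 ± 4.24 CPM in WT mice, and Hspb8 11.0 ± 0.879 CPM in Neat1-/- mice and 10.2 ± 1.52 CPM in WT mice. The chaperonin subunits Tcp1 and Cct7 had log2 fold changes of 0.04 (standard error 0.035) and 0.03 (standard error 0.032), the factor Hsf2 one of -0.01 (standard error 0.050) and its partner Hsbp1 one of 0.04 (standard error 0.053). The message of the master regulator Hsf1 averaged 24.1 ± 1.5 CPM in Neat1-/- mice and 24.5 ± 1.91 CPM in WT mice.

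Of 15 J-domain genes tested Dnajb12 alone was past the unadjusted threshold for genotype (log2 fold change 0.10, standard error 0.042, edgeR adjusted p = 0.594), and not without WT replicates 3 and 4 (0.07, standard error 0.047, edgeR unadjusted p = 0.139). Of 22 co-chaperone genes it was Cdc37, which loads kinases on HSP90 (0.07, standard error 0.032, edgeR adjusted p = 0.589), and again not without these libraries (0.06, standard error 0.035, edgeR unadjusted p = 0.0951). With age, Dnajb12 had a slope of -0.06 per month (standard error 0.025, edgeR unadjusted p = 0.0259, adjusted p = 0.82). Fkbp5, an HSP90 co-chaperone induced by glucocorticoids, had a slope of -0.21 per month (standard error 0.063, edgeR unadjusted p = 0.00611, adjusted p = 0.82), and Hspbp1, a nucleotide exchange factor of HSP70, one of -0.06 (standard error 0.023, edgeR adjusted p = 0.82). Of 7 cold shock domain genes tested 0 passed either threshold for genotype, and Lin28b had a slope of 0.16 per month (standard error 0.052, edgeR unadjusted p = 0.00807, adjusted p = 0.82).

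In the list of RBM3 and CIRBP relatives, regulators and targets, 1 of 9 genes passed the adjusted threshold. Rtn3, a reticulon whose translation RBM3 raises in mouse brain, rose to 656, 668, 657 and 664 CPM in Neat1-/- mice, against 551, 539, 517, 521 and 529.7 CPM in WT mice, with no overlap. Its log2 fold change was 0.31 (standard error 0.026, edgeR adjusted p = 0.000101) and 0.29 (standard error 0.025, edgeR adjusted p = 0.000124) without WT replicates 3 and 4, and it passed the adjusted threshold in 17 of 17 alternatives. Rtn3 lies on chromosome 19, as Neat1 does, and the paper lists it among the changed genes of the Neat1 locus. The level here is that of the message and not of its translation. Whether it is related to Rbm3 or to this position was not tested. Clk1, a kinase whose activity is sensitive to temperature, was past the unadjusted threshold (0.09, standard error 0.040, edgeR adjusted p = 0.597) and not without WT replicates 3 and 4 (0.08, standard error 0.044, edgeR unadjusted p = 0.0767). Its slope with age was 0.06 per month (standard error 0.025, edgeR unadjusted p = 0.0282, adjusted p = 0.82), and that of Ntrk2 was -0.04 (standard error 0.015, edgeR unadjusted p = 0.0347, adjusted p = 0.82). Of the 9 genes 8 had a positive log2 fold change, where 9853 of 19753 genes had one.

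The clients of Serpinh1 were read from 16 genes of collagens and collagen modifiers, 0 of which passed the adjusted threshold. Col6a2 and Col6a1, chains of microfibrillar collagen, were higher at an unadjusted p under 0.05. Col6a2 had 16.9, 17.1, 18.8 and 18.4 CPM in Neat1-/- mice, against 15.3, 14.1, 15.2, 11.1 and 15.3 CPM in WT mice, without overlap (log2 fold change 0.33, standard error 0.085, edgeR adjusted p = 0.398). Col6a1 differed by 0.24 on the same scale (standard error 0.066, edgeR adjusted p = 0.43), and Col4a2, of basement membranes, by -0.10 (standard error 0.040, edgeR adjusted p = 0.58). Without WT replicates 3 and 4 the differences were 0.24 for Col6a2 (standard error 0.064), 0.15 for Col6a1 (standard error 0.059) and -0.09 for Col4a2 (standard error 0.045, edgeR unadjusted p = 0.0587). Col1a1, the fibrillar collagen of meninges and vessel walls, varied far more than Serpinh1: it had 12.6, 23.4, 13.9 and 9.51 CPM in Neat1-/- mice, against 79.4, 99.1, 28.1, 3.99 and 9.94 CPM in WT mice. The highest values were the 2-month WT mice, but the 2-month Neat1-/- mouse (9.51 CPM) was among the lowest. The slope with age was -1.23 per month (standard error 0.32, edgeR unadjusted p = 0.002, adjusted p = 0.82).

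**Figure D5:**
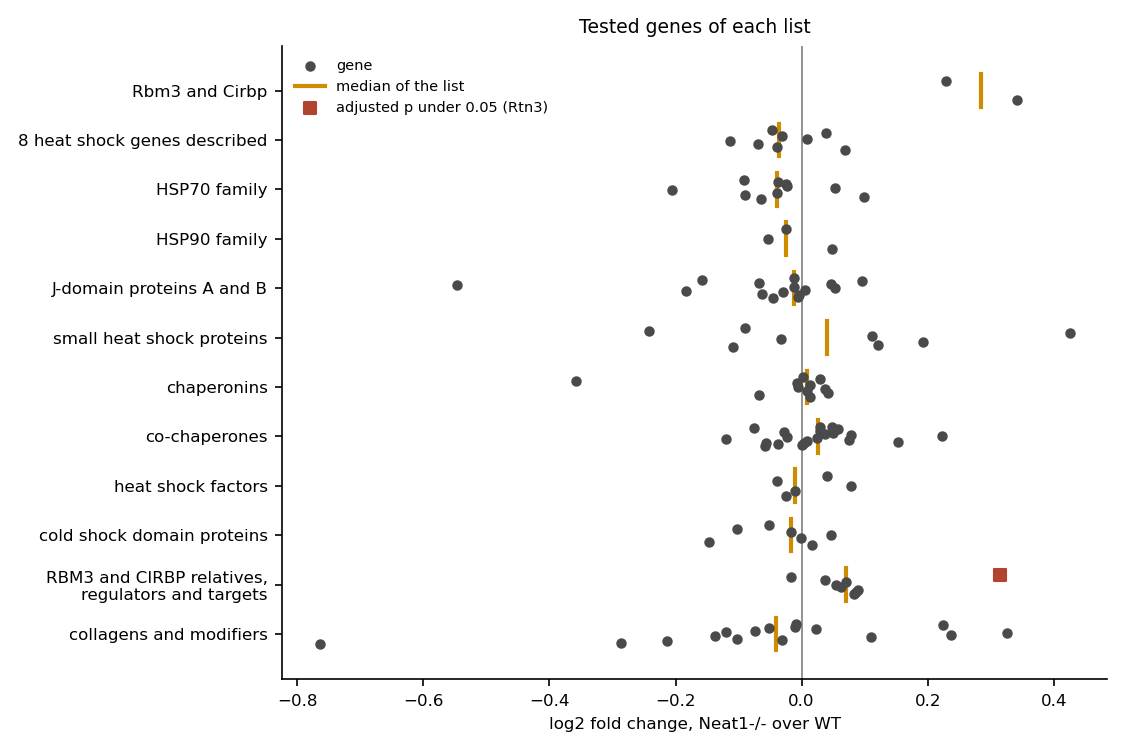
Log2 fold change of Neat1-/- over WT (horizontal axis) for each tested gene, by list (rows), with the median of each list as a bar; the top rows are the 10 genes described here and the other rows hold different genes. Only Rtn3 (square, 0.31) passed an adjusted p of 0.05. Rbm3 and Cirbp, chosen with this contrast in view, lie to the right of the medians of every other list. Single genes of other lists, such as Col6a2 (0.33), also lie to the right of Cirbp (0.23).

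Single markers of other cell types and states differed between genotypes at an unadjusted p under 0.05, and their part in the levels of the 10 genes was not tested. At this threshold edgeR called 4.27% of all tested genes higher and 4.03% lower. Of 11 mature oligodendrocyte markers 6 were lower, with a summed level of 2013 to 3074 CPM in Neat1-/- mice and 2370 to 3735 CPM in WT mice. Of 8 microglial markers 4 were higher (summed level 322.9 to 345.7 CPM in Neat1-/- mice and 297.6 to 344.9 CPM in WT mice), and of 10 endothelial markers 3 were higher (list median 0.012 on the log2 scale). Of 8 choroid plexus markers 3 were lower, each with a mean of at most 0.919 CPM in either genotype. The choroid plexus list summed to 15.4 to 27.0 CPM in Neat1-/- mice and 22.2 to 117.9 CPM in WT mice, with WT replicate 3 the highest. Of 10 neuronal immediate early genes 4 were lower and 1, Jun, was higher. The list summed to 341.8 to 444.6 CPM in Neat1-/- mice and 331.6 to 567.7 CPM in WT mice. In all marker lists 0 genes passed the adjusted threshold and no marker was at 0 in every library. Of 8 cortical excitatory neuron markers, which define the tissue, 2 (Tbr1 and Bcl11b) were higher at an unadjusted p under 0.05, and the list summed to 1377 to 1422 CPM in Neat1-/- mice and 1318 to 1473 CPM in WT mice.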

How the data were processed

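Libraries were mapped and counted by the authors, who deposited raw counts per Ensembl gene and, for 13456 genes, normalized log2 values. The submitters' processing notes name STAR 2.5.0, HTSeq 0.8.0 and mm10, while the supplementary methods name TopHat, Bowtie and HTSeq; a strand setting is not given in the sources used here. The deposited log2 values served only as an alternative. Names and GRCm38 positions came from GENCODE vM21 (42548 IDs named). Genes kept by filterByExpr were tested with edgeR 4.0.16 (R 4.3.3, TMM, quasi-likelihood) on genotype and age in months, with Benjamini-Hochberg adjustment at 0.05 over 19753 genes; the same code was tested on simulated counts. The interaction of age and genotype was added after the data were seen. Total counts of 51276067 to 64648856 per library leave counting error in the lowest genes. Spread within genotype and correlations used log2 CPM with a prior count of 2, and pairs of genes were tested by exact permutation within genotype. Sequences came from RefSeq windows (GRCm38.p6), and pandas 2.3.3, SciPy 1.17.1 and Matplotlib 3.10.9 were used.

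The members, lists and alternatives were chosen with earlier results of these data known, and the lists are not independent evidence. Besides Neat1, the members and, for each member, the 3 genes most like it, the text names the genes of each list past the adjusted threshold for genotype or age, otherwise up to 3 with the smallest unadjusted p if under 0.05, otherwise the 2 with the highest mean CPM; Hsf1, Clk1, Col4a2, Jun, Tbr1 and Bcl11b were added after their values were seen. Alternatives were DESeq2 1.42.0, limma 3.58.1 (voomWithQualityWeights, the authors' method), other size factors, no filter, no age term, a replicate block, the longest transcript as the length, the deposited log2 values and each library left out.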

Additional observations from a re-analysis of the deposited data

Results flagged for a closer look

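Of 20 groups examined, each gene in each genotype, 1 had a mouse far from the others: Hsp90aa1 was at 826 CPM in WT replicate 3 while the other WT mice had 897 to 922 CPM, so that the gap to the nearest mouse was 0.739 of the whole range (825.6 to 922 CPM). About 1 in 20 groups is expected to be singled out by chance. WT replicate 3 is also 1 of the 2 libraries that stood apart on the first principal component, and its part in this value was not tested.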

How the results depend on the processing

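The 180 alternative values of the log2 fold changes of the 10 genes stayed within 1 SD of the spread between mice. Rbm3 and Cirbp were positive in 18 of 18 alternatives (0.17 to 0.46 and 0.15 to 0.29) and Hspa8 and Hsph1 negative in 18 of 18 (-0.11 to -0.05 and -0.17 to -0.08), whereas Hspa1a, Hspa1b, Hsp90aa1, Dnajb1, Hspb1 and Serpinh1 took either sign. The median over the 10 genes was -0.01 and lay between -0.04 and 0.03. The 14 genes called by genotype became 76 with no filter on low counts, 75 with DESeq2 and 22 with limma, and 8 to 30 with single libraries left out. The 0 genes called by age became 15 with no filter, 4 with DESeq2, 1 with limma and 2 without WT replicates 3 and 4, and 0 to 1 with single libraries left out. The 9 pathway genes at an unadjusted p under 0.05 for genotype became 15 with no filter and 14 without WT replicates 3 and 4, and 5 to 19 with single libraries left out; the 11 for age became 6 to 19 with single libraries left out. The causes of these shifts were not tested.

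Slopes with age, none of which passed the test, changed sign in 21 of 160 alternatives. Rbm3 had -0.0085 with limma and -0.0855 to 0.0818 with single libraries left out. Without WT replicates 3 and 4 Cirbp had 0.0271 and Hspa8 -0.0018, and with no filter Hsp90aa1 had -0.0014. With single libraries left out the range was -0.083 to 0.0323 for Cirbp, -0.0102 to 0.0153 for Hspa8, -0.0089 to 0.0124 for Hsp90aa1, -0.0453 to 0.0211 for Dnajb1 and -0.1373 to 0.0083 for Hspb1.

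The shared replicate numbers did not pair the mice: the correlations of same-numbered mice were 0.044, -0.045, 0.137 and -0.077, and not every Neat1-/- mouse correlated best with its own number. With a replicate block 12 genes were called by genotype and 2 by age, and 10 pathway genes passed an unadjusted p of 0.05 for genotype and 3 for age. With the replicate block the slopes with age were 0.1684 for Rbm3, 0.1014 for Cirbp, -0.0022 for Hspa8, -0.0178 for Hsph1, 0.0012 for Dnajb1 and 0.1137 for Hspb1, and Rbm3 and Cirbp were higher with age at an unadjusted p under 0.05 (smallest adjusted p 1.0).

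The low counts of Hspa1a, Hspa1b and Hspb1 (136 to 314 per library) limit the precision of their values, and folds between genes that share sequence depend on how reads were assigned.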
